A study of Mus musculus with 6 samples.

Results

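The 10 genes described here write, copy, remove or read DNA methylation. They are the methyltransferase genes Dnmt1, Dnmt3a and Dnmt3b, the maintenance cofactor Uhrf1 and its paralog Uhrf2, the dioxygenase genes Tet1, Tet2 and Tet3, and the methyl-CpG reader genes Mbd1 and Mbd2. They were taken by symbol from a table of read counts with 13709 rows and 13680 different symbols, and all 10 were found and had enough reads to be tested. The table came from bulk RNA-Seq of CD4+YFP+CD25+ regulatory T cells (Tregs), CD4+ T cells that carry the transcription factor Foxp3 and restrain other immune cells. There were 3 samples from WT mice (Foxp3Cre) and 3 from KO mice (Foxp3Cre Zfp335 fl/fl), all on the C57BL/6 background and 2 weeks old by the study's methods. Zfp335 is a zinc finger transcription factor, and its floxed gene is deleted by Cre in the KO mice. Both groups carry the same Foxp3Cre allele, in which a YFP-Cre fusion is made from the Foxp3 locus, so the sort gate and the deletion both depend on Foxp3 being transcribed. The labels name lymph nodes in some fields and spleen in another. No source used here says whether mice were pooled.

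Cytosine methylation at CpG sites is kept through cell division by copying. Uhrf1 binds CpG sites that are methylated on the parental strand only and brings in Dnmt1, which methylates the new strand, while Dnmt3a and Dnmt3b place methyl groups where none were present. Tet enzymes oxidize 5-methylcytosine stepwise, and the oxidized base is either lost by dilution at replication or cut out by Tdg and replaced through base excision repair. Proteins with a methyl-CpG-binding domain, such as Mbd1 and Mbd2, read the mark and bring in repressor complexes. In Tregs a conserved noncoding region of Foxp3 is demethylated, which depends on Tet enzymes and keeps Foxp3 transcribed in dividing cells. The files hold mRNA levels only, and methylation itself was not measured in them.

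Start-site sequences of Uhrf1, Dnmt1 and Uhrf2 are shown. The windows were searched for the binding motif of E2F, the transcription factor family of the G1/S transition. The Uhrf1 and Dnmt1 lines were picked because they held a match, and Uhrf2 is the paralog of Uhrf1. A part of E2F in the levels of these genes was not tested. RefSeq windows of 300 bases, from 250 before to 50 after each transcription start (build GRCm38.p6), were given for 8 of the 10 genes, 13 windows in all, with no entry for Mbd1 or Mbd2. The letters TTTCCCGC, TTTGGCGC, TTTCGCGC and TTTGCCGC were searched on both strands. They were present in 2 windows, 1 of Dnmt1 and 1 of Uhrf1, and in none of the 8 windows of the other 6 genes. Of 13578 windows of genes in the count table, 3.81% held such a match, so a window without one was the usual case. Only exact matches were counted, and the Uhrf2 sequence below holds gttggcgc, which differs from TTTGGCGC in 1 letter. A match is a description of letters and not a measured binding site. Sequences run 5′ to 3′, and capitals mark the match.
Uhrf1, chr17:56304063-56304312 (plus strand): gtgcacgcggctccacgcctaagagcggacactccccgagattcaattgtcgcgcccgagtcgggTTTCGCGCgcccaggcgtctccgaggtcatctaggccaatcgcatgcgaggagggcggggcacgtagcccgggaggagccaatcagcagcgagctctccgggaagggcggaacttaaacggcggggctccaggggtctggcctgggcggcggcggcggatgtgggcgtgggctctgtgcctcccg
Uhrf2, chr19:30030263-30030512 (plus strand): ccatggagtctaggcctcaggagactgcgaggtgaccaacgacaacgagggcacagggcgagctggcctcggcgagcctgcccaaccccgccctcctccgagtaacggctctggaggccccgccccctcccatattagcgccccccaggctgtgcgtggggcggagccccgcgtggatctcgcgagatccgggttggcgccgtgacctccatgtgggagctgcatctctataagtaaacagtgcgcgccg
Dnmt1, chr9:20952824-20952853 (minus strand): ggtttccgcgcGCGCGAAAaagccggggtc
Dnmt1, chr9:20952574-20952603 (minus strand): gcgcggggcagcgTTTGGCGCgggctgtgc
The Uhrf1 sequence is the 250 bases before the second RefSeq start, which lies inside an intron of the longer annotated transcripts, with the match at position -185 from that start. The Uhrf2 sequence is the 250 bases before its start and lies outside the gene. The Dnmt1 lines are 30-base stretches at positions -219 and 34 of the RefSeq start numbered 3, both within annotated 5′ untranslated exons of alternative Dnmt1 transcripts, and the first of them holds the motif on the opposite strand. None of these matches overlapped another motif searched. The CCAAT box (letters CCAAT) was present in 5 of the 13 windows and in 37.9% of those of table genes, the GC box (GGGCGG) in 11 and 59%, and the cell cycle homology element CHR (TTTGAA) in 2 and 12.9%.

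The libraries held 32032631 to 40728419 counted reads each, and the 10 genes had from 455 reads (Tet1) to 21520 reads (Dnmt1) in a sample. Zfp335 was measured at 101, 94.3 and 103 CPM (reads scaled by library totals after TMM adjustment) in the WT samples and at 37.0, 37.9 and 40.2 CPM in the KO samples, or 38.6% of the WT level, although 1107 of its exon bases are shared with the neighboring gene Pcif1. WT3 stood apart from WT1 and WT2. On the second principal component of log2 CPM (17.3% of the variance) it lay at -42.9, against 19.3 and 24 for the other WT samples, while the first component (72.4%) separated the genotypes. Values without WT3 are given where it changed a call, a sign or a median by a large part, and for several genes whose call it did not change. WT1 and WT2 lay closer to each other than to WT3, so adjusted p-values without WT3 come from a smaller spread. They are not stronger evidence than the adjusted p-values from all 6 samples. Nothing in the labels says that the 3 samples of a group came from separate mice, so p-values measure the spread between these samples, which may be technical.

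Among the 10 genes, 2 were higher in KO Tregs (Dnmt1 and Uhrf1), 1 was lower (Tet1) and 7 did not pass, with the study's cutoffs of more than 1.5-fold, p under 0.05 and adjusted p under 0.1 in edgeR's quasi-likelihood test. Over the 13594 genes tested, 24.4% passed, 11.9% as higher and 12.5% as lower, so the count among the 10 genes was near that of all genes. The median log2 fold change was -0.14 for the 10 genes and -0.04 for all genes, and that of the 10 genes was 0.01 without WT3. In 3 of the 10 every KO sample lay above every WT sample (Dnmt1, Uhrf1, Mbd2) and in 4 every KO sample lay below (Dnmt3a, Dnmt3b, Tet1, Tet3), which was the case for 26.2% and 27.6% of all genes tested (53.8% in either direction). The adjusted p was under 0.1 in edgeR for 7 of the 10 genes and for 47% of all genes, with no cutoff on fold. The other 3 genes (Uhrf2, Tet2, Mbd1) overlapped between the groups. KO samples were close to each other, with coefficients of variation from 1.02% to 12.3% for the 10 genes, whereas those of WT samples ran from 1.66% to 42.5%. Since the RNA came from bulk cells, fewer cells of a type and less RNA per cell cannot be told apart.

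**Figure D1:**
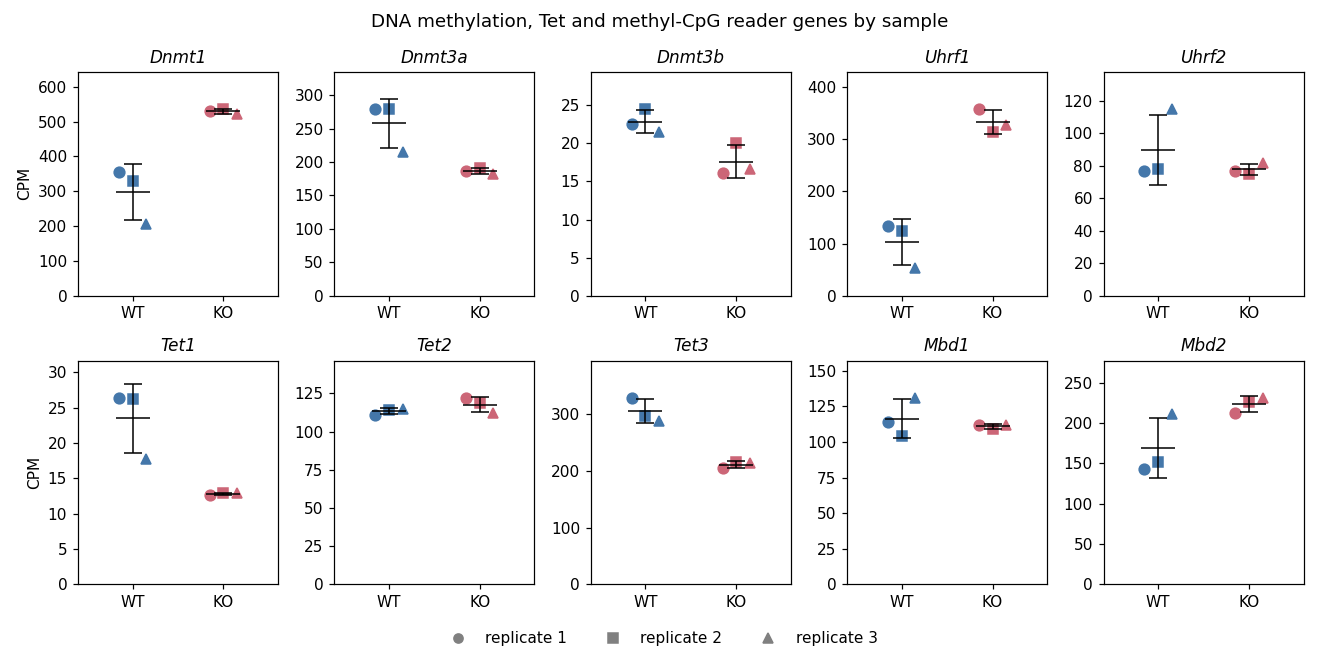
CPM of each of the 10 genes in every sample, 1 panel per gene, with replicates as symbols and lines for the group mean ± SD (n = 3). Dnmt1, Uhrf1 and Mbd2 have every KO point above the WT points, and WT3 lies apart from WT1 and WT2 for Uhrf1, at 52.9 against 133 and 124 CPM.

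The maintenance genes rose together. Uhrf1 was at 133, 124 and 52.9 CPM in the WT samples and at 358, 315 and 327 CPM in the KO samples. The groups did not overlap, and WT3 was the lowest sample, at 41.2% of the mean of WT1 and WT2. The mean went from 103 ± 43.9 CPM to 333 ± 22.6 CPM (SD, n = 3 per group), a 3.22-fold rise with a log2 fold change of 1.69 (SE 0.30, 95% interval 0.98 to 2.39, edgeR adjusted p = 0.00379). Without WT3 the log2 fold change was 1.37 (edgeR adjusted p = 4.57e-10).

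Dnmt1, the maintenance methyltransferase, was at 356, 330.1 and 206 CPM in WT and at 531, 536 and 523 CPM in KO. Again WT3 was lowest, at 59.9% of the mean of the other WT samples, and the groups were apart. The mean rose 1.78-fold, from 297 ± 80.5 CPM to 529.8 ± 6.26 CPM (SD, n = 3 per group), with a log2 fold change of 0.83 (SE 0.18, 95% interval 0.41 to 1.26, edgeR adjusted p = 0.00921). It was 0.62 without WT3 (edgeR adjusted p = 1.72e-07). Tested against a fold change of 1.5 rather than none, Dnmt1 did not pass (edgeR glmTreat adjusted p = 0.218) and Uhrf1 did (0.0214).

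Uhrf2 has the same domain order as Uhrf1 but does not replace it in maintenance. Its levels were 76.8, 78.3 and 115 CPM in WT and 76.6, 75.3 and 81.7 CPM in KO. All KO samples were close to WT1 and WT2, and WT3 alone was higher, at 148% of the mean of the other WT samples. The log2 fold change was -0.21 (95% interval -0.56 to 0.14, edgeR adjusted p = 0.321) and 0.00 without WT3.

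Both de novo methyltransferase genes had lower values in KO Tregs, by less than the 1.5-fold that a call required. Dnmt3a was at 279, 279 and 215 CPM in WT and at 187, 191 and 182 CPM in KO. The groups were apart, with WT3 nearest the KO samples. The KO mean was 72.4% of the WT mean, and the log2 fold change was -0.47 (SE 0.11, 95% interval -0.71 to -0.22, edgeR adjusted p = 0.0109). The gene shares 133 exon bases with an antisense gene, Dnmt3aos, and has a processed pseudogene, Dnmt3a-ps1, and whether reads were counted by strand was not given, so its counts are less certain.

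Dnmt3b was at 22.6, 24.5 and 21.5 CPM in WT and at 16.1, 20.1 and 16.6 CPM in KO. Here KO2 was the highest KO sample and WT3 the lowest WT sample, with a small gap between them. The KO mean was 76.8% of the WT mean, with a log2 fold change of -0.38 (SE 0.12, 95% interval -0.66 to -0.10, edgeR adjusted p = 0.0375). Without WT3 the log2 fold changes were -0.584 for Dnmt3a and -0.42 for Dnmt3b, and neither was called. Dnmt3a then missed the 1.5-fold cutoff only barely (edgeR adjusted p = 3e-07). The adjusted p of Dnmt3a, Dnmt3b and Tet3 was under 0.05, which was also so for 38.6% of all genes tested.

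Of the 3 Tet genes, Tet1 and Tet3 had lower values in KO Tregs, and Tet1 alone passed the fold cutoff. Tet2 overlapped between the groups. Tet1 fell, from 26.4, 26.3 and 17.8 CPM in WT to 12.7, 12.9 and 12.9 CPM in KO. Its groups were apart, and WT3 was between the other WT samples and the KO samples, at 67.5% of the former. The KO mean was 54.7% of the WT mean (23.5 ± 4.94 and 12.8 ± 0.131 CPM, SD, n = 3 per group), with a log2 fold change of -0.87 (SE 0.16, 95% interval -1.25 to -0.49, edgeR adjusted p = 0.00437). Without WT3 it was -1.04 (edgeR adjusted p = 7.05e-07), and against a fold change of 1.5 it did not pass (edgeR glmTreat adjusted p = 0.127).

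Tet3, the most abundant Tet mRNA in these cells by reads and per length, was at 328, 297 and 288 CPM in WT and at 204, 215 and 213 CPM in KO. No KO sample came near a WT sample. The KO mean was 69.2% of the WT mean, a difference of -0.53 on the log2 scale with a small error (SE 0.07, 95% interval -0.70 to -0.36, edgeR adjusted p = 0.00115), short of the 1.5-fold cutoff.

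Tet2 was at 111, 114 and 115 CPM in WT and at 122, 119 and 112 CPM in KO. The groups overlapped, and the interval of the log2 fold change was narrow (0.05, 95% interval -0.09 to 0.20, edgeR adjusted p = 0.547), so that a difference of 1.5-fold in either direction lay outside it. Tet2 shares 43 exon bases with an antisense gene.

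Of the readers, Mbd2 brings the NuRD complex, a histone deacetylase and nucleosome remodeler, to methylated DNA. Its levels were 143, 152 and 211 CPM in WT and 212, 226 and 231 CPM in KO. WT3 lay just below KO1, at 143% of the mean of the other WT samples. The log2 fold change was 0.40 (SE 0.14, 95% interval 0.07 to 0.73, edgeR adjusted p = 0.0561), under the fold cutoff. Without WT3 it was 0.59 (edgeR adjusted p = 1.08e-06), and Mbd2 then passed.

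Mbd1, which represses transcription from methylated DNA, was at 114, 104 and 131 CPM in WT and at 112, 109 and 112 CPM in KO. The KO values lay within the WT range. The log2 fold change was -0.07 (95% interval -0.27 to 0.14, edgeR adjusted p = 0.606), and it was 0.02 without WT3.

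**Figure D2:**
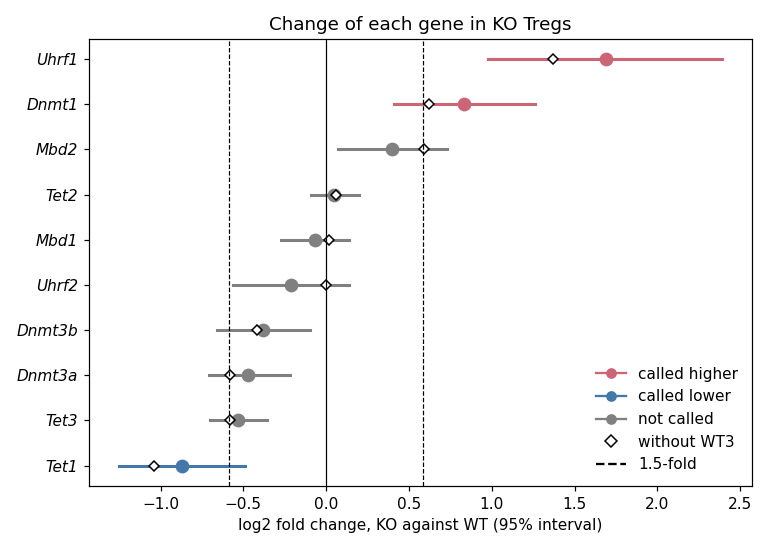
Log2 fold change, KO minus WT, of the 10 genes as points with 95% intervals from all 6 samples, open diamonds for the values without WT3, and dashed lines at 1.5-fold. With all samples Uhrf1 (1.69) and Dnmt1 (0.83) lie above the upper line and Tet1 (-0.87) below the lower one, and Mbd2 crosses the upper line without WT3 (0.59).

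To compare levels between genes, reads were divided by the exon length of each gene (RPKM). In WT Tregs Mbd2 was at 52.5 ± 11.5 RPKM, Dnmt1 at 40.3 ± 10.9 and Uhrf1 at 24.3 ± 10.3 (SD, n = 3). Tet3 (18.2 ± 1.28), Mbd1 (17.4 ± 2.02), Dnmt3a (15.5 ± 2.21) and Uhrf2 (10.5 ± 2.49 RPKM) followed, and from Mbd2 down to Uhrf2 the sample ranges of neighbors in this order overlapped. Tet2 (6.71 ± 0.111), Dnmt3b (4.48 ± 0.295) and Tet1 (1.52 ± 0.320 RPKM) came last, with no overlap between them or with Uhrf2.

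In KO Tregs Uhrf1 led the order, at 78.3 ± 5.30 RPKM, above Dnmt1 at 71.8 ± 0.849 and Mbd2 at 69.4 ± 2.98 (SD, n = 3), of which the latter pair overlapped. The next gene, Mbd1, was at 16.6 ± 0.237 RPKM, and the other 6 were between 12.6 (Tet3) and 0.831 (Tet1). All neighbors except Dnmt1 and Mbd2 were apart in KO. The order rests on the length used. With the longest annotated transcript in place of all exons, Mbd2 led in KO (114 RPKM, Uhrf1 92.9) and Mbd1 (29.7) lay above Uhrf1 (28.8) in WT.

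The makeup of each family was compared as shares of its summed RPKM. Of the Dnmt sum, Dnmt1 made up 69.5%, 67.5% and 61.9% in the WT samples and 83.3%, 82.5% and 83.3% in the KO samples. The share of Dnmt3a was 26.0% ± 2.39 in WT and 13.0% ± 0.0981 in KO, and that of Dnmt3b was 7.66% ± 1.54 and 3.98% ± 0.429 (SD, n = 3 per group). The groups did not overlap for any of these shares. The Dnmt sum itself went from 60.3 ± 13.3 to 86.5 ± 1.45 RPKM.

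Of the Tet sum, Tet3 made up 68.9% ± 1.33 in WT and 61.8% ± 1.39 in KO, and Tet2 25.4% ± 1.74 and 34.1% ± 1.42 (SD, n = 3 per group). Tet1 was a small part, at 5.72% ± 1.02 in WT and 4.08% ± 0.0527 in KO. The Tet sum was 26.5 ± 1.40 RPKM in WT and 20.4 ± 0.314 RPKM in KO. Uhrf1 was 77.8%, 76.1% and 48.2% of the Uhrf sum in WT and 90.4%, 89.4% and 89.0% in KO, lowest in WT3. With the longest transcripts as lengths these shares were 63.1%, 60.9% and 31.3% in WT and 82.2%, 80.5% and 79.8% in KO, so how the pair compared within WT3 rests on the length used, while WT3 was lowest with both lengths. The difference in the Uhrf1 share was 22.22 percentage points with all samples and 12.64 without WT3.

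**Figure D3:**
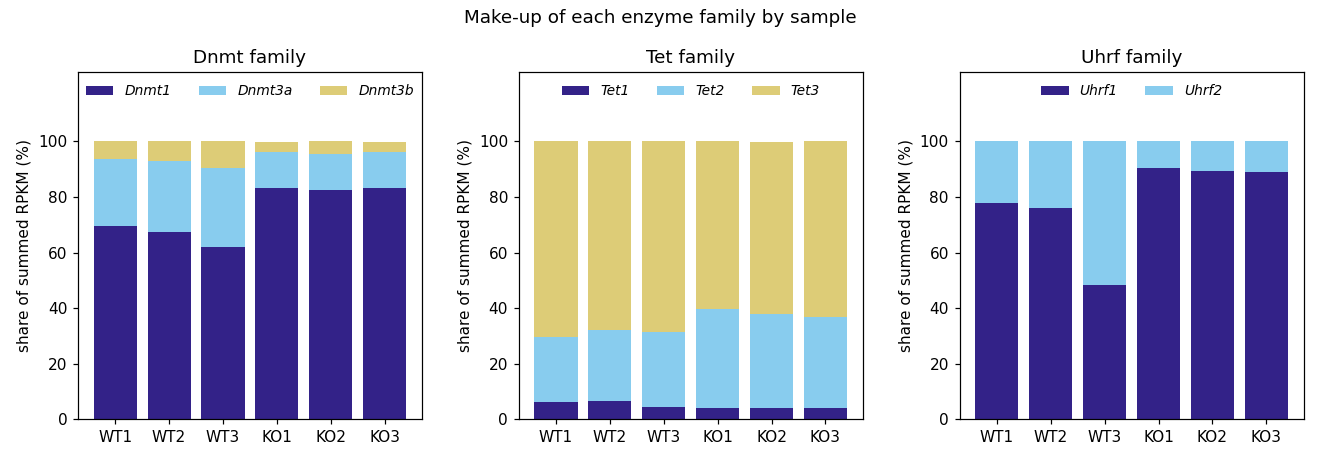
Stacked bars of the share (percent) of summed RPKM that each gene took in its family, 1 bar per sample, in panels for the Dnmt, Tet and Uhrf families. Dnmt1 takes 61.9% to 69.5% in WT and 82.5% to 83.3% in KO, and the Uhrf1 share of WT3 (48.2%) is far below that of every other sample.

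Ratios between genes within a sample do not depend on how libraries are scaled. In 9 log2 ratios per length, 7 did not overlap between the groups. Each of these had p = 0.1 in a two-sided exact permutation test, the smallest that 3 against 3 samples allow (0.129 after Benjamini-Hochberg adjustment over the 9 ratios). Of all single genes tested, 53.8% did not overlap, and the share among ratios of other genes was not computed. Several ratios use the same genes, so the 7 are not separate results. Uhrf1 over Uhrf2 was 1.81, 1.67 and -0.10 in WT and 3.24, 3.07 and 3.01 in KO, a difference of 1.98. It was 1.37 without WT3. Dnmt1 over Dnmt3a, maintenance over de novo, was 1.53, 1.42 and 1.11 in WT and 2.68, 2.66 and 2.70 in KO, a difference of 1.33.

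By contrast, the de novo pair kept close to the same ratio, with Dnmt3a over Dnmt3b at 1.78 ± 0.15 in WT and 1.71 ± 0.15 in KO (SD, n = 3 per group, exact permutation p = 0.6). Tet1 over Tet3 also overlapped (-3.61 ± 0.27 and -3.92 ± 0.03, exact permutation p = 0.2), although only Tet1 passed the fold cutoff. This overlap came from WT3 alone, at -3.90 against -3.89 in KO1, while WT1 (-3.53) and WT2 (-3.38) lay above every KO sample. The difference was -0.32 with all samples and -0.466 without WT3. Tet2 over Tet3 was higher in every KO sample, by 0.58, and Mbd1 over Mbd2 was lower in every KO sample, by a difference of -0.48. Dnmt1 over Uhrf1 went from 0.80 ± 0.31 in WT to -0.12 ± 0.10 in KO, with every KO sample below every WT sample. Which of the pair was more abundant in KO rests on the length used, since with the longest transcripts the ratios were -0.15, 0.06 and -0.03 in KO and 0.71, 0.70 and 1.25 in WT.

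**Figure D4:**
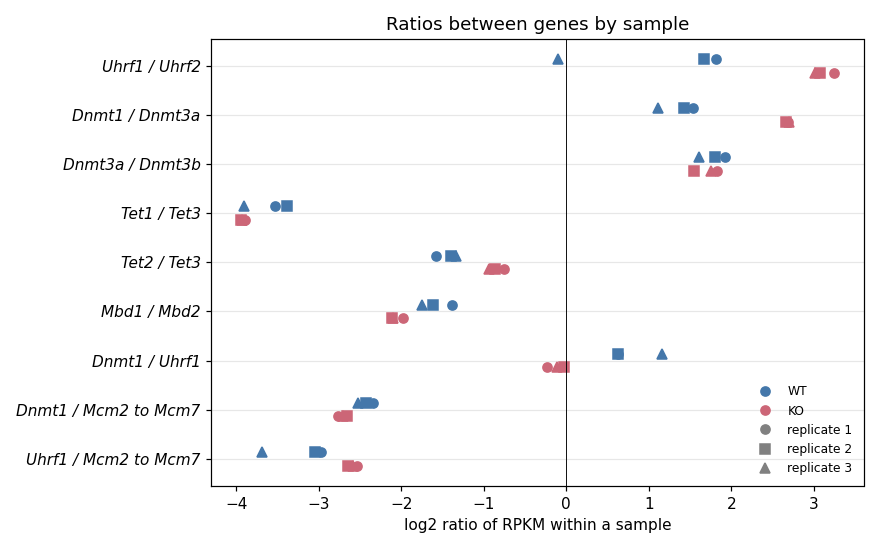
The 9 log2 ratios per length in every sample, WT in blue and KO in red, with replicates as symbols. The groups are apart in 7 ratios and overlap for Dnmt3a over Dnmt3b and for Tet1 over Tet3, and WT3 (-0.10) is far from the other WT samples for Uhrf1 over Uhrf2.

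Uhrf1 and Dnmt1 are known to be transcribed mainly in cells that enter S phase, so their values are set beside those of replication and cell cycle genes. All 14 genes of that list were higher in KO Tregs (median log2 fold change 1.40, and 1.16 without WT3), among them the proliferation marker Mki67 (2.09, edgeR adjusted p = 0.00101), the ribonucleotide reductase subunit Rrm2 (2.46) and the sliding clamp Pcna (0.95). Without WT3, 13 of 14 were higher. Their summed level was 2184, 2176 and 1259 CPM in WT and 5589.8, 5357 and 5328 CPM in KO, lowest in WT3, as it was for Uhrf1 and Dnmt1. The part of cell division in the levels of the maintenance genes was not tested.

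Set against the summed helicase genes Mcm2 to Mcm7, the pair parted. The log2 ratio of Dnmt1 to Mcm2 to Mcm7 was -2.34, -2.43 and -2.52 in WT and -2.77, -2.66 and -2.70 in KO, so Dnmt1 was lower relative to the helicase genes in every KO sample (difference -0.28). For Uhrf1 the ratio was -2.97, -3.05 and -3.69 in WT and -2.54, -2.64 and -2.59 in KO, higher in every KO sample (difference 0.65, 0.42 without WT3). Both differences had p = 0.1 in the exact permutation test, the smallest possible. The direction rests on the genes taken as reference. By log2 fold change, Uhrf1 (1.69) rose less than Rrm2 (2.46), Ccna2 (2.11), Mki67 (2.09), Ccnb1 (1.94), Cdk1 (1.92) and Top2a (1.80). It rose more than the rest of the replication list. Dnmt1 (0.83) rose more than Mcm6 (0.73) and less than the rest.

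For each gene that passed, the 3 genes whose log2 CPM followed it most closely over the 6 samples were found by the root mean square difference of centered values, among the 9882 genes whose mean reached 5 CPM. Nearest to Uhrf1 were Ccnf (0.059), which encodes cyclin F, Kif22 (0.068), a mitotic kinesin, and Prc1 (0.072), a spindle midzone protein. Nearest to Dnmt1 were Pidd1 (0.049), Atad2 (0.058) and Zdhhc2 (0.063). For Tet1 they were Gstp3 (0.038), Endod1 (0.041) and Ogt (0.052), the last being the O-GlcNAc transferase. All 9 have log2 fold changes near those of the gene they follow, which the measure favors.

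The other genes of the pathway were read from 6 lists. Of 53 listed genes 50 were in the table and tested, of which 5 were higher, 8 lower and 37 not called, with a median log2 fold change of -0.04, equal to that of all genes (0.02 without WT3). Among 8 other methyl-CpG readers none was called higher and 2 were lower (median -0.16). Mbd6 went from 196 ± 25.3 to 119 ± 7.44 CPM (SD, n = 3 per group, log2 fold change -0.72, edgeR adjusted p = 0.00136) and Zbtb4, a zinc finger reader, from 93.5 ± 7.20 to 48.1 ± 1.42 CPM (-0.96, 0.000133). With offsets for GC content and length, Mbd6 was at -0.50 and under the fold cutoff. Mbd3 (-0.29) did not reach the fold cutoff, nor did Mbd4 (0.48), a glycosylase that removes thymine from mismatches at methylated CpG sites.

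Of 8 tested partners of maintenance and de novo methylation, Hells alone passed. This chromatin remodeler, which opens heterochromatin for Dnmt enzymes, rose from 57.0 ± 14.8 to 130.2 ± 2.42 CPM (SD, n = 3 per group, log2 fold change 1.19, edgeR adjusted p = 0.00123). Its known partner Cdca7 was at 60.1, 65.6 and 42.0 CPM in WT and at 64.9, 60.2 and 65.8 CPM in KO (0.19, edgeR adjusted p = 0.38, and 0.01 without WT3). Usp7, which stabilizes Dnmt1, was at 273 ± 20.9 and 292 ± 7.88 CPM and did not pass. Dnmt3l, Dppa3 and Zfp57 were not rows of the table, which holds few genes with low counts.

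In base excision and demethylation, 3 of 10 genes were higher, 1 lower and 6 not called (median 0.04). Gadd45g, a stress-induced gene linked to demethylation, rose from 19.7 ± 5.78 to 55.5 ± 2.18 CPM (SD, n = 3 per group, log2 fold change 1.5, edgeR adjusted p = 0.000774). The DNA glycosylase genes went apart, with Neil3 higher (1.32, edgeR adjusted p = 0.054) and Neil2 lower (-0.62, 0.0251). Neither call was firm. Neil3 was at 0.89 without WT3, still called, and missed the adjusted p cutoff without any 1 of the KO samples (edgeR adjusted p = 0.121 to 0.129), and Neil2 missed the fold cutoff without WT1 (-0.56) or KO2 (-0.51). Tdg, which excises oxidized methylcytosine made by Tet enzymes, had a log2 fold change of 0.52 (edgeR adjusted p = 0.00578) and missed the fold cutoff, and 367 of its exon bases are shared with Glt8d2. Gadd45b, of the same family as Gadd45g, was at 37.9, 38.0 and 187 CPM in WT and at 116, 114 and 115 CPM in KO, with WT3 above and the other WT samples below every KO sample. It passed without WT3 only (1.59, edgeR adjusted p = 8.35e-11). Gadd45a did not pass (-0.59) but did without WT1 (-0.81, edgeR adjusted p = 0.0462), and was at -0.18 without WT3.

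Mbd2 works through NuRD, and of the 11 subunit genes only Chd3, a remodeling ATPase, passed, falling from 1210.3 ± 62.8 to 701 ± 23.6 CPM (SD, n = 3 per group, log2 fold change -0.79, edgeR adjusted p = 0.000164). Its paralog Chd4 was at 746 ± 18 and 826 ± 27.0 CPM and did not pass. The median of the list was 0.08. In the supply of methyl donor and alpha-ketoglutarate, 1 of 8 genes was higher and 2 lower (median -0.15). Ahcy, which clears the S-adenosylhomocysteine that inhibits methyltransferases, rose from 130.1 ± 10.7 to 260.0 ± 3.18 CPM (log2 fold change 1.0, edgeR adjusted p = 9.32e-05). D2hgdh, which removes the Tet inhibitor D-2-hydroxyglutarate, fell from 28.2 ± 2.76 to 17.1 ± 1.0 CPM (-0.72, edgeR adjusted p = 0.00168).

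Of 5 genes with regions known to be demethylated in Tregs, 2 fell and 3 did not pass (median -0.41). Without WT3 the median was -0.07 and 1 gene fell. Foxp3 was at 738, 642 and 1189.8 CPM in WT and at 459.7, 472 and 463 CPM in KO. WT3 was far above the other WT samples, and without it the log2 fold change went from -0.88 (edgeR adjusted p = 0.0122) to -0.57 (1.27e-06) and no longer reached the fold cutoff. Foxp3 shares 590 exon bases with Ccdc22 and 266 with Ppp1r3f, so part of its reads may come from them. Ikzf4, a Foxp3 partner, fell from 269.9, 261 and 196 CPM to 96.3, 102 and 96.8 CPM (-1.30, edgeR adjusted p = 0.000222) and passed with and without WT3. Ctla4 (-0.41), Il2ra (-0.12) and Tnfrsf18 (-0.11) did not pass, and without WT3 they were at -0.07, 0.08 and 0.04.

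**Figure D5:**
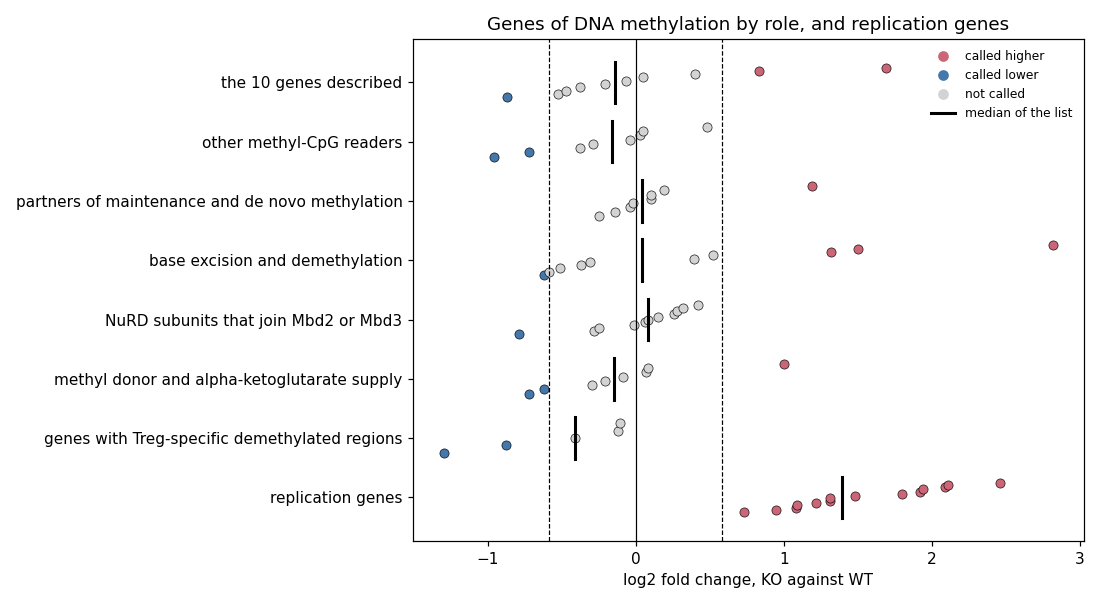
Log2 fold change, KO minus WT, of every tested gene among the 10 genes described, the 6 pathway lists and the 14 replication genes, with genes called higher in red and lower in blue, a black bar at the median of each list and dashed lines at 1.5-fold. The replication genes all lie above 0 (median 1.40), while the medians of the pathway lists lie between -0.41 and 0.08, the lowest being that of the Treg-specific list, which was -0.07 without WT3.

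Markers of other cells were measured beside these results. The summed level of 6 Treg and CD4 T cell markers was 3928 to 5102 CPM in WT and 3309 to 3406 CPM in KO, high in both groups, with 2 of 6 lower (Foxp3 and Ikzf2). Of 7 myeloid markers with a row in the table, 6 were higher in KO, at 16.7 to 28.0 CPM summed in WT and 51.0 to 60.5 CPM in KO. Among them S100a8 and S100a9 were at 0 in every WT sample. In the study's single-cell data of younger mice, a Treg subset that accumulated in KO had high levels of both. Of the myeloid markers listed here, the study's text names only S100a8 and S100a9 for that subset. Itgam went from a mean of 3.02 CPM in WT to 13.2 CPM in KO, and Csf1r from 1.52 to 6.93 CPM. Lyz2 went from 10.3 to 19.5 CPM and Adgre1 from 0.22 to 0.956 CPM, while Cd68 (8.95 and 10.1 CPM) did not pass. Which cells held the reads of these markers cannot be told from bulk RNA and was not tested. NK cell markers were at 3.59 to 5.83 CPM in WT and 15 to 16.2 CPM in KO (2 of 3 higher). Most of that rise was in Eomes (mean 2.31 CPM in WT and 11.3 CPM in KO), and Ncr1 (0.384 and 0.94 CPM) did not pass. Plasma cell markers were at 1.03 to 3.87 and 2.71 to 3.91 CPM (2 of 3 higher), and CD8 T cell markers at 9.32 to 13.2 and 12 to 12.7 CPM (1 of 2 higher). With 1 sample left out, 4 to 6 myeloid, 1 or 2 NK cell, 0 to 2 plasma cell and 0 or 1 CD8 T cell markers were called higher. B cell markers were at 18 to 20.1 CPM in WT and 12.1 to 12.6 CPM in KO, with 1 of 5 called lower and none higher. None of 5 erythroid markers passed, at 23.3 to 101 CPM in WT and 43.2 to 49.9 CPM in KO, with WT3 lowest, and 3 of them were lower in KO without WT3. The part of such cells in the levels of the 10 genes was not tested.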

How the data were processed

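Total RNA of CD4+YFP+CD25+ Tregs (3 WT, 3 KO) was sequenced. Per the methods, the authors filtered reads with SOAPnuke, aligned them with HISAT2 to mm10, computed TPM with StringTie and used DESeq2 for their comparison. The deposited table holds raw counts per gene, whole numbers with no normalization. How whole counts were made beside the StringTie values, the annotation and the strand setting are not given in the sources used here, and few genes with low counts are in the table. Reads from overlapping genes may therefore be credited to either.

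From these counts, edgeR 4.0.16 in R 4.3.3 was run on all 6 samples (filterByExpr with a minimum count of 10, TMM scaling, quasi-likelihood F-test, Benjamini-Hochberg adjustment over the 13594 genes tested). A gene was called at a fold change over 1.5, p under 0.05 and adjusted p under 0.1, the study's cutoffs. CPM were computed with TMM-scaled totals. RPKM were computed here with the union of GENCODE M21 exons (GRCm38). Ratios were tested with a two-sided exact permutation test. Mean, SD and n are over samples, and depth was 32032631 to 40728419 counts per sample. The code was tested on simulated data with known changes.

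The text names all 10 genes, Zfp335, called or listed members of the gene lists, and the 3 nearest genes of each called member. The members and lists were chosen with earlier results of these data known. The alternatives were DESeq2 1.42.0, other scalings and filters, other cutoffs, GC and length offsets, a replicate block and leaving out each sample. The longest transcript as length was chosen after seeing the data. Some genes of the lists are counted in them but not reported here by name.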

Additional observations from a re-analysis of the deposited data

How the results depend on the processing

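Dnmt1, Uhrf1 and Tet1 kept their calls with DESeq2 (3402 genes called over the table, against 3318), RLE scaling (3303), library totals alone (3397), no low-count filter (3330), at least 10 counts in every sample (2988), GC and length offsets (3368) and a replicate block (3190, of which 3100 were shared with the fit without it), and with each sample left out. No other member was called in these fits except Mbd2 without WT3. The replicate block changed no member's call. Deviations of samples with the same number correlated weakly (0.08, 0.047 and 0.013). Each WT sample still correlated best with the KO sample of its own number. In return KO1 and KO2 correlated best with the WT sample of their number, whereas KO3 did so with WT2. The labels do not say what a number marks, so the pairing was not used.

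With adjusted p under 0.05 and no fold cutoff, 5244 of 13594 genes (38.6%) were called (2610 higher, 2634 lower). Of the 50 pathway genes tested, 26 passed. Among the 10 members 2 were higher and 4 lower, since Dnmt3a (-0.465), Dnmt3b (-0.380) and Tet3 (-0.532) joined Tet1. With edgeR's glmTreat against 1.5-fold, 1402 of the 13594 genes were called (800 higher, 602 lower). Of the 50 pathway genes 7 passed, and of the 10 members 1 was higher and 0 lower: Dnmt1 (0.834) and Tet1 (-0.870) no longer passed. Both follow from the cutoff itself.

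Leaving out 1 sample gave 2867 to 3667 called genes (1414 to 1862 higher, 1453 to 1805 lower). It gave log2 fold changes of -0.308 to 0.001 for Uhrf2, -0.143 to 0.024 for Mbd1 and 0.299 to 0.593 for Mbd2. The upper end is the value without WT3 in each case, where Uhrf2 and Mbd1 turned sign and Mbd2 passed. The log2 ratio of Dnmt3a to Dnmt3b ran from -0.152 to 0.012, the latter without KO2. The cause was not tested.

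With the longest transcript as length, the differences in share were 18.67 percentage points for Dnmt1, -8.09 for Tet3 and 29.03 for Uhrf1, against 16.75, -7.06 and 22.22. With 3 samples per group, single-value permutation tests cannot pass 0.05. Depth did not limit the 10 genes, whose lowest count was 455, but it limits several markers of other cells.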
